A study of Mus musculus with 45 samples.

Results

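Wild type mouse B cells after 4 days of culture labelled LPS were compared with resting wild type B cells before culture, across every gene of the deposited expression table. The comparison held 3 libraries against 3, or 6 of the 45 libraries of the series, picked by their titles, and 20331 genes passed a filter on low values. Lipopolysaccharide (LPS) is a component of the outer membrane of Gram-negative bacteria, and the cultured cells carry the label plasmablast, a dividing cell on the way to antibody secretion.

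The series followed splenic B2 cells, the conventional B cells of the spleen, through cultures that lead to antibody-secreting cells, in 15 groups of 3 libraries. Both groups compared here were wild type C57BL/6. Per the sample labels, the day 0 cells came from male mice of 7 weeks and the LPS day 4 cells from female mice of 9 weeks, while the protocol text calls the animals matched in sex and age. B2 cells were isolated from spleen with a kit that contains an antibody to CD43, and their purity was checked before culture. The composition of the LPS culture is not given in the sources used here. Other groups serve only for reference. The wild type TLR day 4 group (labelled as male mice of 7 weeks) was grown with LPS, feeder cells expressing CD40L, IL-4 and IL-5. The dEx1A LPS day 4 group (labelled as female mice of 9 weeks) carried a deletion of exon 1A of Prdm1. Whether each replicate was its own animal is not stated in the labels. P-values rest on the spread within groups, pooled over all 39 libraries of the table, and that spread may be technical. A gene uneven only in the groups compared can thus have a standard error smaller than its own values would give.

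A resting B cell carries IgM and IgD on its surface, divides rarely and makes little secreted antibody. LPS binds the Toll-like receptor TLR4 and, on mouse B cells, is a mitogen that needs no T cell help. Dividing cells may then switch on Blimp-1, encoded by Prdm1, which silences B cell genes, and XBP1, which enlarges the endoplasmic reticulum (ER), where antibody chains are folded before secretion. In mice, LPS alone is known to direct class switching toward IgG3 and IgG2b, and IL-4 redirects it toward IgG1 and IgE.

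Values are the authors' log2 expression after a variance-stabilising transformation, on which a gene without reads stands at 3.04. Values are given in the order of replicates 1 to 3, differences are LPS day 4 minus day 0 in log2 units with their standard error (SE), and adjusted p-values come from limma with Benjamini-Hochberg adjustment. Genes low in 1 group are compressed toward 3.04, so their differences are understated. A large change is a difference of at least 2 units with an adjusted p below 0.05. Because the samples are bulk RNA, fewer cells of a type and less RNA per cell cannot be told apart.

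The libraries differed in more than culture. Depth, worked back from the table, was 20.29 to 21.86 M reads per library at day 0 and 15.51 to 19.43 M at LPS day 4. Genes rich in GC stood higher at LPS day 4 than at day 0. Over 7507 well expressed protein-coding genes, ordered by GC content in 4 bins, the median difference was −0.50 in the bin lowest in GC, −0.20 and 0.06 in the middle bins and 0.51 in the bin richest in GC. After a correction for GC content and length these medians were −0.03, −0.05, −0.03 and 0.00. The dEx1A LPS day 4 libraries, compared with the same day 0 libraries, gave −0.07, 0.00, −0.01 and −0.04 without a correction. Large changes followed GC content as well: large rises made up 3.2% of the bin lowest in GC and 10.3% of the richest, and large falls 5.65% and 2.45%. Corrected values are therefore given beside genes whose call they change, or whose difference from day 0 they move by over 1.5 times. The correction moved the median difference of all genes from −0.01 to −0.14.

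**Figure D1:**
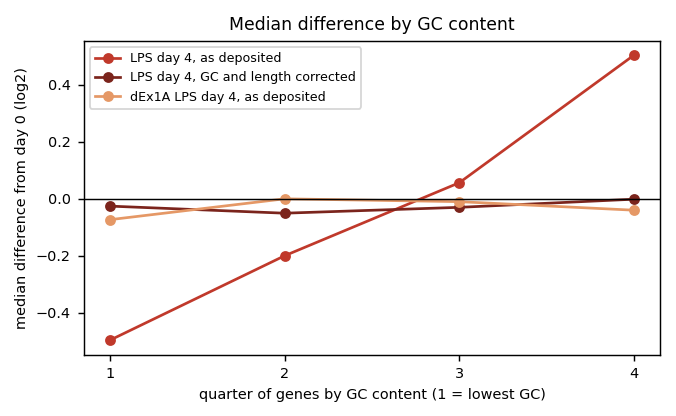
Median difference from day 0 (vertical axis, log2 units) in 4 equal bins of protein-coding genes ordered by GC content (horizontal axis), as lines through 4 points each. The wild type LPS day 4 line climbs from −0.50 to 0.51 as deposited and lies near 0 after correction, and the dEx1A LPS day 4 line stays within 0.1 of 0 throughout.

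The wild type LPS libraries also stood apart from the rest of the table at a small set of genes. At 37 genes all 6 wild type LPS libraries (days 4 and 7) lay at least 1 unit above every one of the other 33 libraries, and at 6 genes they lay at least 1 unit below. The TLR and BCR cultures of wild type cells and the dEx1A LPS and TLR cultures had 0 such genes in either direction, and the dEx1A BCR culture had 3 above and 0 below. Of the 37 genes, 29 were heavy chain variable segments, 22 of them annotated as pseudogenes, such as Ighv3-2, which was at 12.66 to 12.75 at LPS day 4 and at 5.01 to 5.32 at day 0. Ighv7-2 was at 10.11 to 10.77 at LPS day 4 and at 3.04, without reads, in all day 0, TLR day 4 and dEx1A LPS day 4 libraries. The others included the pseudogene Rps3a2 (12.71 to 13.02 against 8.71 to 8.99 at day 0) and the phospholipase family gene Gdpd3 (9.57 to 10.05 against 5.24 to 5.44). In the other direction the functional segment Ighv5-16 and the receptor gene Tnfrsf26 had no reads in the 3 LPS day 4 libraries and stood at 7.77 to 7.97 and 8.78 to 9.22 at day 0. These genes separate the wild type LPS libraries from the dEx1A LPS libraries as well as from day 0, although all are labelled C57BL/6. Their part in the results below was not tested, and the gap of 1 unit was chosen after the values were seen. Xist and the Y-linked genes went with the labelled sex, with 4 Y-linked genes at 0 reads in all 3 LPS day 4 libraries.

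Most of the transcriptome differed between the groups. Of 20331 genes, 5542 (27.3%) were higher and 6259 (30.8%) lower at LPS day 4, so that 58.0% passed in 1 direction or the other, and the 3 values of each group did not overlap at 13993 genes (68.8%). Large rises numbered 1237 (6.08%) and large falls 890 (4.38%). After the GC and length correction they numbered 856 and 919, so the share of large changes that were rises went from 58.2% to 48.2%. Of the large rises, 146 were among 215 functional immunoglobulin variable segments tested and 23 among 55 variable pseudogenes, and 898 were protein-coding. The counts of list members below are to be read against these shares of all genes.

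The largest rises among well expressed protein-coding and immunoglobulin constant genes brought together secretion, antibody and division genes. Tmed6 (ENSMUSG00000031919.6, GRCm38 chr8:107061476-107065644), a member of the family of cargo receptors of ER-derived vesicles, was at 3.90, 4.29 and 4.59 at day 0 and at 12.12, 12.48 and 12.35 at LPS day 4. The groups lay far apart, with a difference of 8.06 ± 0.37 (SE, adjusted p = 7.01e-18). Hid1, which acts in the sorting of secretory cargo at the Golgi, rose by 7.67 ± 0.40. Ptgir, the prostacyclin receptor, rose by 7.05 ± 0.19 from a day 0 mean of 3.34, a level of few reads. Mef2b, a transcription factor of germinal centre B cells, went from 4.90, 4.55 and 4.98 to 10.34, 10.33 and 10.35. Its 3 LPS values were above every day 0 value by more than 5 units. Zbtb32, a repressor found in plasma cells, rose by 6.68 ± 0.24, and Tent5c, a poly(A) polymerase that stabilises immunoglobulin messages, by 5.94 ± 0.21. Pik3r6, a regulatory subunit of PI3-kinase gamma (5.58 ± 0.17), Sapcd2, a gene of spindle orientation (5.54 ± 0.26), and Alpl, alkaline phosphatase (5.48 ± 0.26), were also among the 15 largest rises, as were Cdc20 and the antibody genes described below. Alpl at 5.48 was the last inside the limit of 15, and the next gene, AC154187.2, stood at 5.47.

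The 15 largest falls included Ighd, the transcription factor genes Fosb and Klf4, and 3 interferon-inducible genes of the p200 family. Fosb, an AP-1 transcription factor made within minutes of a stimulus, was at 14.05, 13.57 and 13.90 at day 0 and at 6.99, 7.38 and 6.27 at LPS day 4 (−6.96 ± 0.57, adjusted p = 6.66e-12). Klf4, a Krüppel-like factor that holds lymphocytes out of cycle, was at 11.37, 11.30 and 11.50 and then at 5.05, 4.63 and 4.35 (−6.71 ± 0.24, adjusted p = 1.69e-20). March1, the ubiquitin ligase that removes MHC class II from the surface, fell by 6.32 ± 0.32 to a mean of 6.18. Zfp318, which is needed for IgD transcripts, fell by 5.93 ± 0.33 alongside Ighd. Rasgef1b, an activator of small GTPases (−5.85 ± 0.24), and Icosl, the ligand of the T cell receptor ICOS (−5.78 ± 0.21), also fell in all 3 libraries without overlap. Ifi213, Ifi208 and Ifi206, of the interferon-inducible p200 family on chromosome 1, fell by 6.84 ± 0.34, 5.91 ± 0.24 and 5.76 ± 0.30. Members of that family are near-identical in parts and can share reads, so the split of the fall among them is uncertain. Ifi206 was the last inside the limit of 15, and Tsc22d3, at −5.71, the first outside it.

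Among the 15 falls, 5 are genes known from other cell types or a gene at which the wild type LPS libraries stand apart. Vcam1, an adhesion molecule of spleen stroma and macrophages, was at 9.52, 9.79 and 10.37 at day 0 and had no reads at LPS day 4, which makes it at least 306-fold lower when a floor of 3 counts per library is used. Slc40a1, the iron exporter of macrophages, fell by 6.31 ± 0.76. The haemoglobin genes Hba-a2 and Hbb-bs, whose near-identical copies share reads, were lower by 6.22 ± 0.49 and 5.96 ± 0.58, and their day 0 values were uneven, with Hba-a2 at 11.58 in replicate 1 and at 8.53 and 8.16 in replicates 2 and 3. Erythroid and platelet markers together made up 46.7 to 506 RPM (reads per 1 M reads) at day 0 and 3.24 to 3.67 RPM at LPS day 4. Tnfrsf26, a decoy receptor of the TNF family (chr7:143607659-143628722), was at 9.08, 9.22 and 8.78 at day 0 and without reads at LPS day 4, at least 161-fold lower. It was at 8.33, 7.82 and 8.07 in the dEx1A LPS day 4 libraries and at 9.88, 9.67 and 10.31 in the TLR culture, so it had reads in the LPS libraries of the other genotype.

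**Figure D2:**
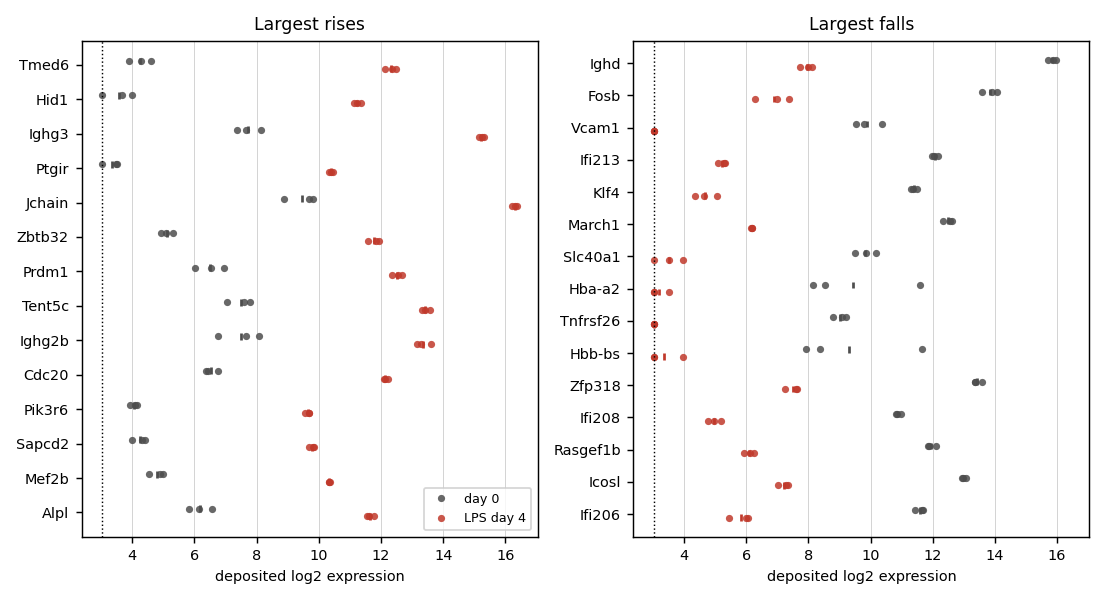
Deposited log2 expression (horizontal axis) of 14 of the 15 largest rises (left) and the 15 largest falls (right), with 1 point per library (3 per group) and a short bar at each group mean. The dotted line marks 3.04, a gene without reads. The groups are separate in every row, and the 2 haemoglobin genes show 1 day 0 library far above the other pair.

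Antibody genes took a larger share of the RNA after LPS. Immunoglobulin genes took 1.94, 1.94 and 2.01% of the recovered reads at day 0 and 14.8, 14.5 and 16.0% at LPS day 4. The day 0 and LPS ranges lay far apart, while the TLR culture at day 4 was at 1.94 to 2.80% and the dEx1A LPS culture at 2.47 to 4.74%. Of 12 constant region genes tested, 8 were higher (against 27.3% of all genes), 1 lower and 3 did not pass, with a median difference of 2.22 against −0.01 for all genes (1.39 after the GC and length correction). Ighm, the IgM heavy chain, took 0.696 to 0.760% of reads at day 0 and 7.76 to 8.27% at LPS day 4, and rose by 3.61 ± 0.30 in log2 expression. Igkc, the kappa light chain, rose by 3.42 ± 0.34 (2.16 after the correction). Jchain, which joins IgM into pentamers, was at 8.88, 9.81 and 9.69 and then at 16.30, 16.22 and 16.37 (6.84 ± 0.41, adjusted p = 4.78e-15).

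Genes of the other heavy chain isotypes changed unequally. Values are per constant gene, and whether the transcripts came from switched cells was not tested. Ighg3, the IgG3 heavy chain, was at 7.37, 7.67 and 8.15 at day 0 and at 15.31, 15.14 and 15.24 at LPS day 4 (7.50 ± 0.39). Ighg2b went from 6.77, 8.09 and 7.65 to 13.28, 13.17 and 13.61 (5.85 ± 0.48), and Ighg2c rose by 3.66 ± 0.47. Ighg1, at 10.28, 9.48 and 10.00 after LPS, rose by 1.94 ± 0.46 from an uneven day 0 (6.01, 9.23 and 8.69), a call that was lost in a fit of these 6 libraries alone (adjusted p = 0.113). Ighe, at 3.73, 4.03 and 4.54, did not pass (0.30 ± 0.29, adjusted p = 0.384), nor did Igha (adjusted p = 0.101), which passed without LPS replicate 1 (1.71). Constant genes of the IgG classes are alike in sequence, so reads may be split between them. Ighd, the IgD heavy chain that resting B cells carry beside IgM, was at 15.85, 15.96 and 15.69 and fell to between 7.73 and 8.10, the largest fall among the genes named by the rule (−7.89 ± 0.35, adjusted p = 4.41e-18). Variable segments rose with the constant regions. Of 215 tested 170 were higher and 7 lower, with a median of 2.65, which was 1.19 after the GC and length correction and 0.31 against day 0 in the dEx1A LPS culture. Segments are alike in sequence and share reads, and the wild type LPS libraries stood apart at 29 of them and of their pseudogenes, as given above. Of the lambda genes, Iglc1 rose by 2.49 ± 0.35 (1.10 after the GC and length correction), and Iglc2 by 0.90 ± 0.26, a call that was lost after the GC and length correction (−0.23).

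**Figure D3:**
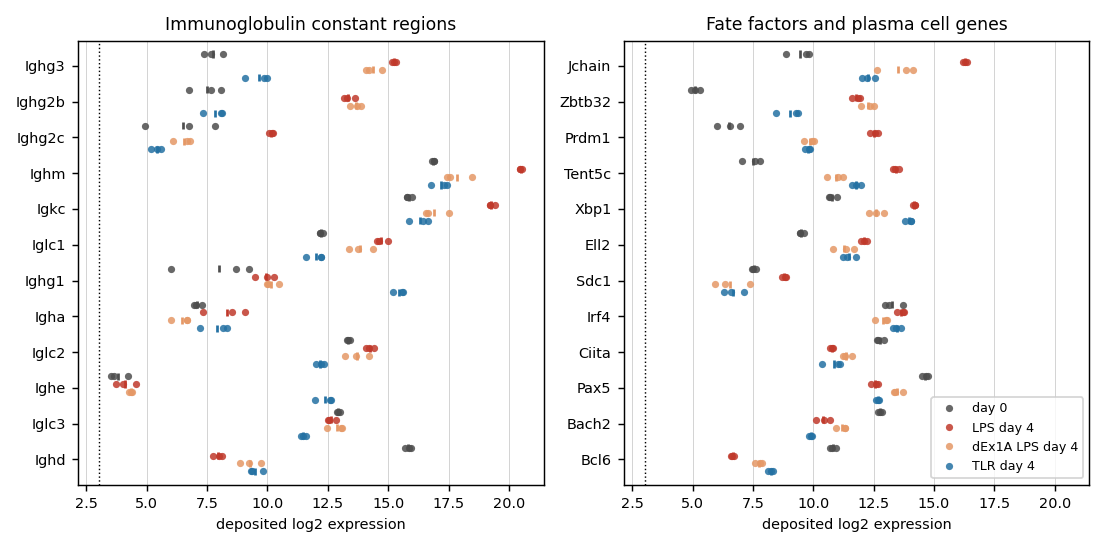
Deposited log2 expression (horizontal axis) of 12 immunoglobulin constant region genes (left) and 12 fate and plasma cell genes (right), with 1 point per library and a bar at each group mean, for day 0, LPS day 4, dEx1A LPS day 4 and TLR day 4. Ighg3 and Ighg2b are high in both LPS groups and lower in the TLR culture, Ighe and Ighg1 are highest in the TLR culture, and Jchain and Prdm1 are highest at wild type LPS day 4.

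Of 24 genes of plasma cell identity and antibody secretion, 20 were higher (27.3% of all genes), 12 of them by at least 2 units (6.08% of all genes), and 1 was lower, with a median of 1.93. Beside Jchain and Tent5c, the list included the ER degradation gene Derl3 (5.39 ± 0.41), the ER co-chaperone Mzb1, which helps IgM assembly (4.50 ± 0.30), and the elongation factor Ell2, which favours the secreted form of heavy chain transcripts (2.59 ± 0.22). The surface markers moved less. Sdc1, the plasma cell protein CD138, went from 7.62, 7.47 and 7.51 to 8.88, 8.71 and 8.81 (1.27 ± 0.29), and Tnfrsf17, the receptor BCMA, rose by 1.75 ± 0.38 to a mean of only 4.93. The rise of Tnfrsf17 was 1.01 after the GC and length correction, and its call was lost in an earlier form of that correction that also removed the library mean (0.62, adjusted p = 0.0959). Cd38 fell by 2.31 ± 0.40. Prg2, the eosinophil granule protein also made by some plasma cells, rose by 4.42 ± 0.33 and was −0.05 ± 0.33 against day 0 in the dEx1A LPS culture.

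The factors that set B cell and plasma cell fate moved in both directions. Of 27 tested, 10 were higher and 12 lower (27.3% and 30.8% of all genes), and 5 did not pass. There were 5 large rises and 5 large falls (6.08% and 4.38% of all genes). Their median was 0.13 (−0.12 after the GC and length correction). Prdm1 (ENSMUSG00000038151.13, GRCm38 chr10:44437177-44528501), the gene of Blimp-1, was at 6.01, 6.54 and 6.95 at day 0 and at 12.55, 12.68 and 12.34 at LPS day 4. The rise of 6.02 ± 0.28 (adjusted p = 1.11e-17) put all 3 LPS values more than 5 units above day 0. Xbp1, the transcription factor of the secretory programme, went from 10.71, 10.66 and 10.97 to 14.12, 14.21 and 14.20 (3.40 ± 0.17). Batf, needed for class switching, rose by 3.11 ± 0.26 (1.88 after the correction), and Creb3l2, an ER-bound relative of ATF6, by 2.83 ± 0.23. Irf4, a factor of both activated B cells and plasma cells, did not pass, with 12.96, 13.12 and 13.72 at day 0 and 13.76, 13.73 and 13.45 at LPS day 4 (0.38 ± 0.18, adjusted p = 0.0671). It passed after the GC and length correction (0.65) and by voom (0.52, and 0.53 on thinned reads). It also passed with the replicate number as a block (0.38, adjusted p = 0.0343), and without day 0 replicate 3 (0.61) or LPS replicate 3 (0.48).

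Repressors of plasma cell fate and keepers of B cell identity were lower. Bcl6, the germinal centre repressor that opposes Blimp-1, fell from 10.76, 10.71 and 10.92 to 6.71, 6.61 and 6.65 (−4.14 ± 0.16, adjusted p = 8.15e-20). Bach2, which represses Prdm1, fell by 2.34 ± 0.16 and Pax5, the keeper of B cell identity, by 2.09 ± 0.21, from 14.76, 14.67 and 14.50 to 12.69, 12.58 and 12.38. Ets1 (−2.38 ± 0.13) and Ebf1 (−2.31 ± 0.16) fell by similar amounts. None of the 3 values of either group overlapped for Bcl6 or Pax5, and Pax5 was still above 12 in each LPS library.

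Cell division accounted for the most uniform group. All 30 genes of mitosis and the spindle rose (against 27.3% of all genes), 29 of them by at least 2 units, with a median of 4.04. Cdc20, the activator of the anaphase-promoting complex, went from 6.45, 6.38 and 6.76 to 12.13, 12.21 and 12.09 (5.61 ± 0.34). Plk1, a mitotic kinase, rose by 5.36 ± 0.26, Ube2c, the ubiquitin carrier of the same complex, by 5.24 ± 0.16, and Mki67, the proliferation antigen Ki-67, by 4.28 ± 0.21. Of 32 genes of DNA replication and nucleotide synthesis 31 rose and 1, Pold1, did not pass (1.00 ± 0.52, adjusted p = 0.0979), with 23 large rises and a median of 2.64. Pold1, the catalytic subunit of DNA polymerase delta, passed in a fit of these 6 libraries alone (adjusted p = 0.00176) and by voom (1.15), and stood at 0.34 after the GC and length correction, where it did not pass. Rrm2, the inducible subunit of ribonucleotide reductase, went from 7.98, 8.16 and 7.93 to 12.87, 12.94 and 12.89 (4.88 ± 0.13). The licensing factor Cdc6 rose by 4.43 ± 0.13, and Uhrf1, which carries DNA methylation through replication, by 4.19 ± 0.18. Replication-dependent histone genes are an exception in level: 15 of 27 tested rose, 4 fell and 0 changed by 2 units, from means near the floor, such as Hist1h2bk (3.04 to 4.97). Their transcripts end without a poly(A) tail, and whether that bears on their level here was not tested. They are near-identical copies, so reads may be split among them.

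Promoters of the mitosis and replication lists are shown because their members moved together. A pair of short motifs was searched on both strands of RefSeq promoters (GRCm38.p6, 250 bases before to 50 after the start): TTTGAA, the cell cycle homology region of mitotic genes, and TTTNNCGC, the core of an E2F site. TTTGAA was in 18 of 25 promoters of the mitosis list (72.0%) and 5 of 34 of the replication list (14.7%), against 17.9% of 32851 promoters. TTTNNCGC was in 15 of 34 promoters of the replication list (44.1%) and 1 of 25 of the mitosis list (4.0%), against 5.2% of all promoters. For each list the 150 bases before the start are given for the 2 members of largest rise with a match there, in the gene's direction, with the match in capitals. Cdc20 is chr4:118437344-118437493, minus strand, Ube2c chr2:164769779-164769928, plus strand, Cdc6 chr11:98908001-98908150, plus strand, and Uhrf1 chr17:56303187-56303336, plus strand.
Cdc20: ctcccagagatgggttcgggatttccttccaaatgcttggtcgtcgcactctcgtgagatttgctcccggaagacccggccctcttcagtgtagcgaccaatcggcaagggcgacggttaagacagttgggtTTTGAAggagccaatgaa
Ube2c: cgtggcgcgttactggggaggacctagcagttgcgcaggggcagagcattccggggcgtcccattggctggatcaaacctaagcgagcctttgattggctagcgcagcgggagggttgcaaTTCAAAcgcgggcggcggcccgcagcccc
Cdc6: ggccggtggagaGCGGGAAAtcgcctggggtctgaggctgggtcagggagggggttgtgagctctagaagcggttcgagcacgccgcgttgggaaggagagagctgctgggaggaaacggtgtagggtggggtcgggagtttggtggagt
Uhrf1: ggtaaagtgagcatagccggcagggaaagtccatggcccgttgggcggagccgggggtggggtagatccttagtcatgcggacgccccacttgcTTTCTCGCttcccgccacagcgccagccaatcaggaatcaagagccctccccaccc
The match lies 18 to 13 bases before the start in Cdc20 and 29 to 24 in Ube2c, where it is read on the opposite strand. In Cdc6, also on the opposite strand, it lies 138 to 131 bases before the start, and in Uhrf1 56 to 49. A match is a description of the letters and not evidence of binding. Each motif, here and below, was picked for its own list, so its share there is not a result of the expression data.

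Genes that hold lymphocytes at rest moved the other way. Of 26 genes of quiescence and cell cycle brakes 19 fell (30.8% of all genes), 9 of them by at least 2 units (4.38% of all genes), 4 rose and 3 did not pass, with a median of −1.50. After Klf4, the largest falls were Tsc22d3, a glucocorticoid-induced leucine zipper gene (−5.71 ± 0.17), Klf6 (−4.25 ± 0.22), the anti-proliferative Btg1, which went from 15.27, 15.27 and 15.15 to 11.25, 11.39 and 11.39, and Klf2, which governs lymphocyte recirculation (−3.85 ± 0.27). The members that rose do not mark rest alone: Cdkn1a, the p53-inducible inhibitor p21 (3.37 ± 0.22), Cdkn2c, the inhibitor p18 needed in plasma cells (2.54 ± 0.14), Ddit4, a brake on mTOR (2.24 ± 0.24, and 1.33 after the GC and length correction), and Mxd4, a MYC antagonist (0.61 ± 0.23). The call of Mxd4 was lost without day 0 replicate 1 or 2 (0.53 and 0.59) and without LPS replicate 1 or 2 (0.58 each).

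Genes of the ER rose across folding, entry and export. Of 28 genes of ER folding and degradation 25 rose, 10 by at least 2 units, 1 fell and 2 did not pass, with a median of 1.85. Derl3 was at 6.38, 6.41 and 6.47 and then at 11.83, 11.80 and 11.81. Sdf2l1, a chaperone partner, rose by 4.11 ± 0.22, Pdia6, a disulfide isomerase, by 3.09 ± 0.17, and Ern1, the stress sensor IRE1 that activates XBP1, by 2.96 ± 0.22. Hspa5, the chaperone BiP, rose less, from 13.59, 13.64 and 13.90 to 14.97, 14.96 and 15.10. Dnajb9, a co-chaperone that restrains IRE1, fell by 0.97 ± 0.28. Of 33 genes of protein entry into the ER and vesicle export 31 rose and 0 fell, 13 by at least 2 units, with a median of 1.71. The largest was Sec24d, a coat protein of export vesicles, from 6.92, 6.83 and 6.97 to 11.74, 11.71 and 11.37 (4.70 ± 0.22), followed by the translocon subunit Sec61b (3.75 ± 0.23, and 2.32 after the GC and length correction) and Ssr2 (3.35 ± 0.28).

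Some of the ER folding promoters carry a longer motif that is rare elsewhere. The ER stress response element, searched as CCAAT and CCACG with any 9 bases between them on both strands, was in 8 of 23 promoters of the ER folding list (34.8%), in 0 of the 25 mitosis, 34 replication and 27 amino acid response promoters, and in 39 of all 32851 (0.12%). The 8 genes were Derl3, Pdia6, Hsp90b1, Calr, Dnajc3, Syvn1, Hspa5 and Canx. The 2 members of largest rise with a match in the 150 bases before the start are Pdia6 (chr12:17266439-17266588, plus strand) and Hsp90b1 (chr10:86705445-86705594, minus strand), with the match in capitals.
Pdia6: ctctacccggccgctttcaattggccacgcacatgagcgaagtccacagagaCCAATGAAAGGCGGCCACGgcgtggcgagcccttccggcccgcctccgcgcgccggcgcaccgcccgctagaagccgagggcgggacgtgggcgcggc
Hsp90b1: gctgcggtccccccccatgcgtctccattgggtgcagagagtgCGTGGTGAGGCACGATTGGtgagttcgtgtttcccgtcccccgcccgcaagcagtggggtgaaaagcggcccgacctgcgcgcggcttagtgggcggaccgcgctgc
Pdia6 holds it 98 to 80 bases before the start and Hsp90b1, an ER member of the HSP90 family that rose by 2.59 ± 0.25, on the opposite strand 107 to 89 bases before it.

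Enzymes and transporters of amino acid supply rose. Of 26 genes of the ATF4 response 23 rose, 14 by at least 2 units, and 3 fell, with a median of 2.09. The 3 that fell encode transcription factors: Atf4 (−0.38 ± 0.11), Ddit3, which encodes CHOP (−0.76 ± 0.25), and Cebpb (−1.22 ± 0.30). After the GC and length correction they stood at −1.07, −1.44 and −2.32, while by voom the call of Atf4 was lost (−0.25, adjusted p = 0.0629). The cationic amino acid transporter Slc7a3 rose by 4.53 ± 0.21 and asparagine synthetase, Asns, from 4.97, 4.85 and 5.33 to 9.69, 9.24 and 9.78 (4.52 ± 0.17). Pycr1 of proline synthesis rose by 4.15 ± 0.25 and Phgdh, the first enzyme of serine synthesis, by 3.36 ± 0.44. The composite site of ATF4, searched as TGATGNAA, was in 10 of 27 promoters of this list (37.0%), 1 of 23 of the ER folding list (4.3%) and 4.0% of all promoters. It is shown for Asns (chr6:7693210-7693359, minus strand) and Pycr1 (chr11:120643749-120643898, minus strand).
Asns: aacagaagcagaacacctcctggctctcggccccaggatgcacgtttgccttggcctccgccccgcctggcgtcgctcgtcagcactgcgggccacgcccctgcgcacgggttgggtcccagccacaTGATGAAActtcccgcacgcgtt
Pycr1: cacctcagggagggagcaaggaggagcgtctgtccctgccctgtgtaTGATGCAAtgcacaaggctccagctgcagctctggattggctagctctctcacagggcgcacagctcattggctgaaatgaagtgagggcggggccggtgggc
It lies 23 to 16 bases before the start in Asns and 103 to 96 in Pycr1.

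In the metabolic lists most members rose. Of 29 genes of sterol and fatty acid synthesis 25 rose, 6 by at least 2 units, and 1 fell (median 1.28), led by Mvd of cholesterol synthesis (3.17 ± 0.70). The 1 that fell was Scd1, a fatty acid desaturase (−1.56 ± 0.18). An exact 10-letter form of the sterol regulatory element was searched on both strands of this list's promoters, and 0 of 26 held it, against 0.091% of all promoters. At so low a share a match in 26 promoters was unlikely, so the 0 shows only that this exact form was absent. Of 24 genes of glycolysis and hypoxia 17 rose, 10 by at least 2 units, and 4 fell (median 1.76). The glycolytic enzyme genes Gapdh (3.04 ± 0.42) and Pkm (2.83 ± 0.40) rose, while Hif1a, the hypoxia factor (−1.58 ± 0.28), and its target Pdk1 (−2.18 ± 0.22) fell. In the list of MYC and ribosome biogenesis 16 of 25 rose, 1 of them by at least 2 units, and 3 fell (median 0.58). Myc itself fell by 1.37 ± 0.18, to 10.06, 9.93 and 9.86, while the nucleolar genes Rrp9 (2.18 ± 0.45, and 1.13 after the GC and length correction) and Npm1 (1.20 ± 0.20) rose.

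Surface genes of the mature B cell fell unevenly. Of 30 tested, 20 were lower (30.8% of all genes), 9 of them by at least 2 units, 4 higher and 6 did not pass, with a median of −1.14. Fcmr, the receptor for IgM, went from 14.08, 14.02 and 14.15 to 8.85, 8.70 and 8.87 (−5.28 ± 0.26). Cr2, the complement receptor CD21, fell by 4.80 ± 0.27 and Fcer2a, the IgE receptor CD23, by 3.47 ± 0.18. Of the antigen receptor's signalling chains, Cd79a did not pass (0.71 ± 0.35, adjusted p = 0.0817). It passed in a fit of these 6 libraries alone (adjusted p = 0.00384) and by voom (0.85), and stood at −0.15 after the GC and length correction. Cd79b fell by 0.74 ± 0.23, and by 1.57 after the correction. The kinase and adaptor genes Syk and Blnk and the phospholipase gene Plcg2 did not pass. After the GC and length correction Syk (−0.32) and Blnk (0.39) passed. Cd24a rose by 1.14 ± 0.25. The rises of Ly6d (1.55 ± 0.54) and Vpreb3 (1.23 ± 0.27) lost their calls after the GC and length correction (0.31 and 0.11).

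Genes of antigen presentation were mostly lower, and homing genes were lower more often than higher. Of 13 genes of MHC class II presentation 10 fell (30.8% of all genes), 5 of them by at least 2 units (4.38% of all genes). The median was −1.59, and 0 rose. Next to March1, the peptide-editing genes H2-Oa (−2.89 ± 0.51) and H2-Ob (−2.68 ± 0.17) fell most, Ciita, the master activator, fell by 1.98 ± 0.26, and Cd74, the invariant chain, did not pass (−0.49 ± 0.44) except after the GC and length correction (−1.49). Of 31 genes of homing, egress and adhesion 18 fell (30.8% of all genes), 12 by at least 2 units (4.38% of all genes). Another 9 rose, a share near the 27.3% of all genes, and the median was −1.30. Rgs1, a brake on chemokine receptors, fell by 5.62 ± 0.41 and Ccr7, the receptor that guides cells to T cell zones, by 4.10 ± 0.27. S1pr1, the receptor for egress into blood, went from 13.11, 13.15 and 12.83 to 9.56, 9.61 and 9.40, with no overlap. Ccr9, a gut-homing receptor, rose from 6.77, 6.32 and 6.03 to 8.97, 9.37 and 8.88 (2.70 ± 0.28), and Ccr10, a mucosal homing receptor of plasma cells without reads at day 0, was at least 12.6-fold higher with the same floor of 3 counts per library.

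Genes that sense LPS or serve other Toll receptors were lower more often than higher at LPS day 4. Of 26 genes of LPS and Toll receptor sensing 15 fell (30.8% of all genes), 3 by at least 2 units (4.38% of all genes). Another 5 rose (27.3% of all genes), and the median was −0.81. Tlr4 went from 8.74, 8.86 and 8.69 to 7.66, 7.37 and 7.19 (−1.36 ± 0.33, and −0.89 after the GC and length correction). Its relative Cd180 fell by 1.76 ± 0.18, and Tlr1 (−3.38 ± 0.26), Tlr3 (−3.37 ± 0.30) and Tlr7 (−2.21 ± 0.28) fell further. The adaptors of the TRIF branch rose, Ticam1 by 1.96 ± 0.40 and Ticam2 by 1.93 ± 0.17. NF-kB subunits, brakes and targets were mixed, with 8 of 26 higher and 10 lower, near the 27.3% and 30.8% of all genes. Their median was −0.02, and 8 did not pass. Rel, the subunit c-Rel, fell from 13.49, 13.70 and 13.75 to 10.82, 10.50 and 10.36 (−3.09 ± 0.26), Birc3 fell by 2.23 ± 0.11, and the costimulatory ligand Cd80 rose by 2.08 ± 0.22.

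Of 26 interferon-stimulated genes 17 fell (30.8% of all genes), 10 by at least 2 units (4.38% of all genes). Another 5 rose (27.3% of all genes), and the median was −1.48. Ifit3 went from 9.05, 9.03 and 9.31 to 4.29, 3.90 and 4.54 (−4.89 ± 0.32), Oas2 fell by 4.46 ± 0.37 and Mx1 by 3.71 ± 0.27, all genes of antiviral defence. Isg15, a ubiquitin-like modifier, rose instead, from 5.97, 5.65 and 6.47 to 9.29, 9.22 and 9.46 (3.29 ± 0.43). Of 23 cytokine and chemokine genes 8 rose and 5 fell, against 27.3% and 30.8% of all genes, and 10 did not pass. Their median was 0.05, and −0.60 after the GC and length correction. Il10, an anti-inflammatory cytokine of activated B cells, went from 5.01, 5.16 and 5.27 to 8.49, 8.38 and 8.56 (3.33 ± 0.23), Il6 rose by 2.98 ± 0.31, and Lta, lymphotoxin alpha, fell by 3.59 ± 0.28.

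Class switching and cell death genes were higher more often than lower. Of 17 genes of switching and mutation 10 rose (27.3% of all genes), 3 by at least 2 units (6.08% of all genes). Another 3 fell (30.8% of all genes), and the median was 0.94. Trp53bp1, a protector of DNA ends, fell by 1.51 ± 0.12 (0.80 after the GC and length correction). In the BCL2 family 10 of 17 rose (27.3% of all genes), 5 by at least 2 units (6.08% of all genes). Another 5 fell, a share near the 30.8% of all genes, and the median was 0.84. Bbc3, the death promoter PUMA, went from 4.43, 3.82 and 4.24 to 9.08, 8.84 and 8.71 (4.71 ± 0.42), and Bcl2l1, which encodes the survival protein BCL-XL, from 6.52, 6.31 and 6.52 to 11.02, 11.12 and 11.04 (4.61 ± 0.32). Bcl2 fell by 1.59 ± 0.21 (1.01 after the GC and length correction) and Mcl1, a survival factor of plasma cells, by 0.74 ± 0.16.

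**Figure D4:**
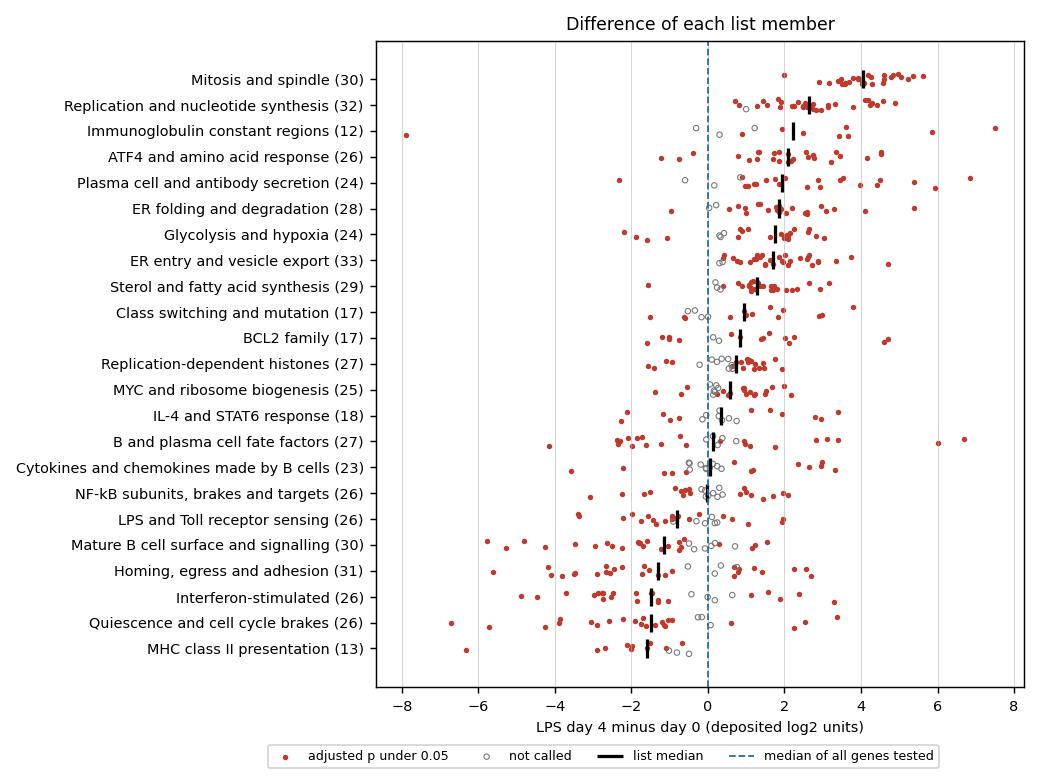
Difference between LPS day 4 and day 0 (horizontal axis, log2 units) for each tested member of 23 gene lists, 1 point per gene, filled where the adjusted p was below 0.05. Black bars mark list medians, from 4.04 for mitosis to −1.59 for MHC class II, and the dashed line marks the median of all genes tested, −0.01.

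Summed markers of other cells were lower after culture. The B lineage was present in both groups, and none of its 7 defining genes lacked reads in either. Of the 7, 2 were higher, 4 lower and 1 did not pass, with a median of −0.74 (−1.51 after the GC and length correction). Cd79a, which did not pass, was at a mean of 14.45 at day 0 and 15.16 at LPS day 4. The summed T and NK markers (19 genes) made up 231 to 244 RPM at day 0 and 50.6 to 61.5 at LPS day 4, with 9 of the 19 at 0 reads there, Cd3e and Ncr1 among them. The 19 macrophage and monocyte markers went from 246 to 339 down to 115 to 117 RPM, with 4 of the 19 at 0 reads, Fcgr1, C1qc and Vcam1 among them. Spp1, which encodes osteopontin, and Cst3 of that list rose (2.48 and 0.85), though Cst3 stood at −0.50 after the GC and length correction, and 11 of its 19 genes fell. The 13 neutrophil markers came to 2.58 to 19.3 and then 1.03 to 1.57 RPM, and 2 of them were lower and 11 did not pass. Their part in the falls above was not tested.

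Against the wild type TLR culture of the same day, which held IL-4, plasma cell genes were mostly higher in the LPS culture and genes of the IL-4 response mostly lower. The groups differ in labelled sex, age and depth (28.6 to 30.3 M reads in the TLR libraries) as well as in culture, and these cannot be told apart. Of 20331 genes 4885 (24.0%) were higher and 5908 (29.1%) lower in the LPS culture. After the GC and length correction 4672 were higher and 5879 lower. TLR replicate 3 was uneven with the other pair at some genes, such as Gapdh (12.56 against 14.03 and 14.37). Without it 3741 genes were higher and 4729 lower. Among ER genes the correction took the calls of Sec61b (1.68 to 0.51) and Sdf2l1 (0.90 to −0.15), and Hsp90b1 gained a call (0.24 to 0.79). The list counts that follow are uncorrected. Of 24 plasma cell and secretion genes 19 were higher and 2 lower, with Jchain higher by 4.03 ± 0.41 and Prdm1 by 2.74 ± 0.28 (adjusted p = 1.83e-09), while Xbp1 did not pass (0.20 ± 0.17, adjusted p = 0.327). Of 18 genes of the IL-4 and STAT6 response 0 were higher and 16 lower, with a median of −3.32 against −0.09 for all genes. Ccl22, a chemokine that IL-4 induces in B cells, was at 7.76, 8.05 and 8.11 in the LPS libraries and at 14.98, 15.19 and 14.78 in the TLR libraries (−7.01 ± 0.24). Socs2, a brake on cytokine signalling, was lower by 6.79 ± 0.24.

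The isotypes divided the same cultures in opposite directions. Ighg3 was higher in the LPS culture by 5.60 ± 0.39 and Ighg2b by 5.51 ± 0.48. Ighe was lower by 8.30 ± 0.29, with TLR values of 12.65, 12.59 and 11.95 against 3.73, 4.03 and 4.54, and Ighg1 was lower by 5.54 ± 0.46.

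Other genes named by size in this comparison were Tmed6 (8.64 ± 0.37 higher), the B-lineage surface gene Ly6d (7.28 ± 0.54), the lipid carrier Apoe (6.55 ± 0.33), the Fc receptor-like gene Fcrla (6.22 ± 0.17) and the WNT ligand Wnt10a (6.10 ± 0.32). Apoe is 1 of the 37 genes at which the wild type LPS libraries stood above all others. It was at 9.30 to 9.84 at day 0 and at 6.09 to 7.27 in the dEx1A LPS day 4 libraries. Against day 0 the wild type LPS culture was higher by 1.86 ± 0.33 (0.78 after the GC and length correction). Fcrla was at 11.86, 11.98 and 11.96 in the LPS libraries and at 5.69, 5.73 and 5.72 in the TLR libraries. Against its day 0 values of 12.59, 12.55 and 12.57, the LPS culture was lower by 0.64 ± 0.17 (1.05 after the GC and length correction). Nov, a matricellular protein, Htr7, a serotonin receptor, and Thy1 had no reads in the LPS libraries, which made them at least 970-, 690- and 623-fold lower than in the TLR libraries. Mpzl2, an adhesion molecule, was lower by 7.26 ± 0.33. Of 16 fibroblast and feeder markers, Thy1 among them, 12 had 0 reads at LPS day 4, where the sum came to 0.39 to 0.92 RPM. In the TLR culture, whose protocol includes feeder cells, the sum came to 102 to 230 RPM. Most of it was Thy1, which is also on the T and NK list, at a mean of 120 ± 49.2 (SD) RPM. Sparc stood at 8.27 and Col1a2 at 4.80 RPM. The part of these markers in the differences of other genes was not tested.

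**Figure D5:**
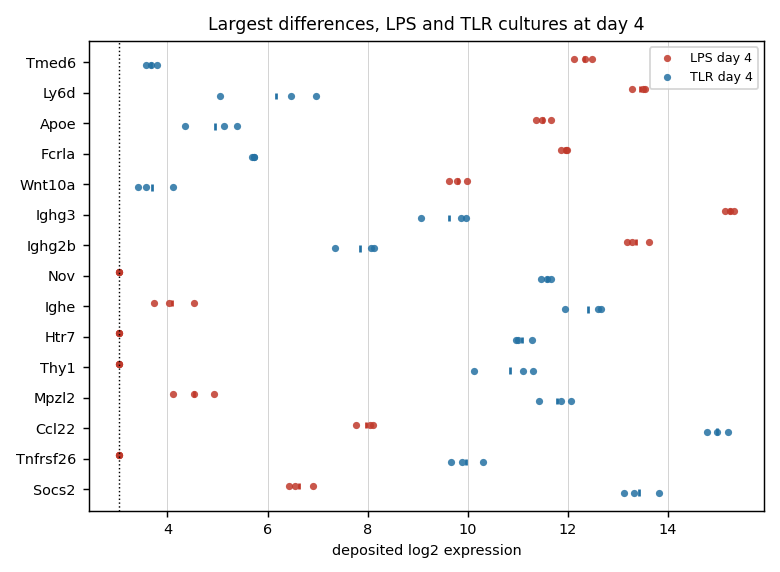
Deposited log2 expression (horizontal axis) of 7 of the 8 genes most above and the 8 most below the TLR culture among those passing the rule, at LPS day 4 and TLR day 4, with 1 point per library and a bar at each mean. The dotted line marks 3.04, and the groups do not overlap in any row.

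The dEx1A LPS culture of day 4 shares labelled sex and age with the wild type LPS culture. Both are compared with the same day 0 libraries, so values are set side by side only. The dEx1A libraries were deeper (26.06 to 30.13 M reads) and lacked the GC trend of the wild type LPS libraries. Medians of division genes lay close: that of the mitosis list was 4.04 in wild type and 4.28 in dEx1A, and that of replication genes 2.64 and 2.68. Secretory lists stood closer to day 0 in dEx1A, with medians of 1.93 and 1.19 for plasma cell genes, 1.85 and 1.12 for ER folding and 2.22 and 0.74 for constant regions. After the GC and length correction the wild type medians of these 3 lists were 2.42, 1.72 and 1.39. Prdm1, measured over the whole gene, was 6.02 ± 0.28 above day 0 in wild type and 3.35 ± 0.28 in dEx1A, and Jchain 6.84 ± 0.41 and 4.06 ± 0.41. Ighg3 (7.50 and 6.62), Ighg2b (5.85 and 6.16), Zbtb32 (6.68 and 7.17) and Ptgir (7.05 and 6.57) had both values above 5. Ighm stood at 3.61 and 0.95, and Ighg2c at 3.66 and 0.02. The difference between the genotypes was not tested here.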

How the data were processed

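Total RNA of the 45 libraries was sequenced as 76-base single reads from a stranded kit, per the labels' protocols. Per the submitters' processing notes, DESeq2 1.22.2 and RSEM 1.3.0 were among the tools, beside STAR 2.6.0c, and GRCm38.p6, mm10 and GRCh38.p12 among the genome builds. What each served for is not given in the sources used here, nor is the annotation or strand setting. The values the authors deposited are log2 values after a variance-stabilising transformation, in a table of 28196 genes and 39 libraries. Gene coordinates are those of GENCODE M21 on GRCm38. A gene with a value below the floor of 3.04 was left out.

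Read numbers were recovered by inverting the transformation. Of values under 20 reads, 95.0 to 100.0% per library came out whole within 0.1, against 20.0% by chance. Their totals, 15.51 to 21.86 M in the 6 libraries compared, set the precision, and floors cover counting error only. Genes at least 1 unit above the floor in at least 3 libraries (20331) entered limma (version 3.58.1, R 4.3.3) as group means over all 39 libraries (26 residual degrees of freedom) with a variance trend, two-sided, with Benjamini-Hochberg adjustment within each comparison. The fit was tested on simulated data.

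Named genes are the 15 largest rises and 15 largest falls (8 and 8 against the TLR culture) among protein-coding and constant region genes with a mean of at least 9 in the higher group, no overlap and the same call after GC and length correction. Other genes were named as list members, or chosen after their values were seen, and a few are not reported here. The correction removes each library's trend with GC content and length, centred and scaled by the slope of the transformation. A first form, which also removed the library mean, was replaced after its counts were seen, and its counts are given with the alternatives. Gene lists, members and tests were chosen with earlier results of these data known. Replicates of a group differed by more than sampling noise. Replicate numbers occur in both groups but do not come with a stated pairing. Alternatives were another filter, no filter, no variance trend, the 2 groups alone, quantile normalisation, GC and length correction, a replicate block, voom on recovered reads and on reads thinned to 15.1 M, and leaving out each library.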

Additional observations from a re-analysis of the deposited data

Results flagged for a closer look

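At 7 genes the LPS and the TLR culture lay on opposite sides of day 0 by at least 2 units each, with the difference between the cultures tested by limma with Benjamini-Hochberg adjustment. Both cultures share the day 0 libraries. Lower in the LPS culture were Lcp2, an adaptor of antigen receptor signalling (−6.57 ± 0.22 SE, with means of 7.41 at day 0, 4.89 with LPS and 11.46 in TLR), Csf1, the macrophage growth factor (−5.85 ± 0.25), B3gnt7, a glycosyltransferase (−5.43 ± 0.29), and Oas3, an antiviral enzyme (−4.88 ± 0.32). Higher were Ccr9 (5.36 ± 0.28), Rasal1, a RAS GTPase activator (4.76 ± 0.43), and Sfn, a 14-3-3 protein (4.59 ± 0.54). The cultures also differ in labelled sex, age and depth, which cannot be told apart from the culture.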

How the results depend on the processing

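Counts stayed within 1.5 times of the values above under the alternatives run, with these exceptions. With a mean of at least 7, 3324 genes were higher, 3442 lower, 778 large rises and 444 large falls, and 3004 were lower than in the TLR culture, with fewer genes tested. On recovered reads, voom gave 2705 large rises and 1956 large falls (2636 and 1949 after thinning), on a scale that does not compress low genes. The uncentred correction, added after seeing the data, gave 9797 lower genes, 753 large rises and 1594 large falls. Without 1 library at a time, 5018 to 5157 genes were higher, 5666 to 5965 lower, 1206 to 1279 large rises and 861 to 951 large falls, and 3741 to 4884 were higher and 4729 to 5678 lower than in the TLR culture.

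Same-numbered libraries deviated from their group means with r = 0.135, −0.073 and 0.206, so the numbers were not taken as pairs. With the replicate block, 5625 genes were higher and 6288 lower, with 1237 large rises and 890 large falls. Of 5412 gene values compared for 161 genes, 5239 kept direction and side of the threshold, 76 lost a call, 74 gained one and 23 reversed. After the GC and length correction, with or without the block, Cst3 stood at −0.50 and Iglc2 at −0.23 against day 0, and Ebf1 at 0.37, Klf2 at −0.02, Pkm at −0.76 and Sdf2l1 at −0.15 against TLR. The uncentred form gave −0.63 for Cst3, −0.34 for Iglc2, −0.09 for Hist1h2bk, −0.49 for Ighe and −0.04 for Vpreb3 against day 0, and −0.25 for Ccr10, 0.31 for Ebf1, −0.12 for Klf2, −0.82 for Pkm, −0.21 for Sdf2l1 and −0.02 for Ube2c against TLR. The cause was not tested. Labelled sex, age, depth and GC trend differ between the groups along with culture, and these cannot be told apart. Small differences of GC-rich or GC-poor genes are therefore the least certain, and low genes are limited by depth.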
